A study of Mus musculus with 5 samples.

Results

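The aurone sulfuretin was set directly against the chalcone butein in differentiated C3H10T1/2 adipocytes, 1 array a side, so the comparison uses 2 of the 5 arrays of the series and no control array. C3H10T1/2 is a mouse mesenchymal cell line that can be turned into adipocytes in culture. The difference for a gene is log2 of its intensity with sulfuretin minus log2 of its intensity with butein. A negative value means less transcript with sulfuretin. Each gene was represented by its brightest probe set among those naming a single gene. It was counted when its highest value over the 5 arrays reached an intensity of 8.39, the median of the probe set means, which kept 12439 of 18193 genes.

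The groups were 5, each a single culture of fully differentiated cells treated for 6 h: DMSO, the solvent control; butein; sulfuretin; DMSO1, which the labels give as the control for resveratrol; and resveratrol. The label for every group names the same cell line and the same standard differentiation, and no other agent. The sources used here do not give the doses of butein and sulfuretin, so a comparison at matched dose was not possible and the values stand side by side at a shared time. With 1 array a group there is no replicate error, and all differences below are between single arrays.

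Butein and sulfuretin are plant polyphenols that share a catechol ring. In a chalcone the carbons between both aromatic rings form an open chain with a double bond next to a ketone. In an aurone part of that chain is closed into a 5-membered ring. Catechols and unsaturated ketones as classes are known to react with cysteine residues of proteins, such as those of KEAP1, the adaptor that holds the transcription factor NRF2 at a low level. Cells under such stress are known to transcribe NRF2 targets, heat shock genes, ATF4 targets and the immediate early genes of the AP-1 family, while mature adipocytes are defined by lipid storage genes and adipokines.

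The labelled cell type was borne out by its markers on both arrays. Of 12 mature adipocyte markers with a probe set, 11 were counted and only Lep, the leptin gene, was under the floor. Adipoq, the adiponectin gene, read 7202 with DMSO, 6122 with butein and 6976 with sulfuretin. The summed intensity of these markers was 25282 with DMSO, 22075 with butein and 25116 with sulfuretin, so it was lowest with butein. Fibroblast markers summed to 5456 with DMSO, 4633 with butein and 5358 with sulfuretin. The defining brown fat genes Ucp1 and Prdm16, the leukocyte and macrophage genes Ptprc, Adgre1 and Itgam, and the muscle genes Myod1, Myog and Myh3 were under the floor. Other markers reached it. For brown or beige fat 5 of 7 were counted, summing to 367 with DMSO, 283 with butein and 335 with sulfuretin. For macrophage and blood and for muscle 3 of 6 each were counted, and for osteoblast and chondrocyte 4 of 6. The absence of such cells was not tested. No marker of any of these types differed by 2-fold between the compounds. In such bulk RNA, fewer cells of a type and less RNA per cell cannot be told apart.

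At least 2-fold less transcript was found with sulfuretin than with butein for 129 genes, 1.04% of the 12439 counted. At least 2-fold more was found for 12 genes, 0.0965%. Most transcripts hardly differed. The median difference was 0, and 10809 genes, 86.9%, lay within 1.25-fold. Values were exactly equal on both arrays for 4090 genes, 32.9%, and why the deposited values coincide was not tested. With a criterion of 1.5-fold the counts were 352 lower, 2.83%, and 122 higher, 0.981%. At a 4-fold difference, 32 genes were lower with sulfuretin and 1, G0s2, was higher. Just inside the 2-fold criterion lay Ugdh at a log2 difference of -1.01 and Lum at 1.01, and just outside it Sirt1 at -0.996 and Kbtbd11 at 0.95.

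**Figure D1:**
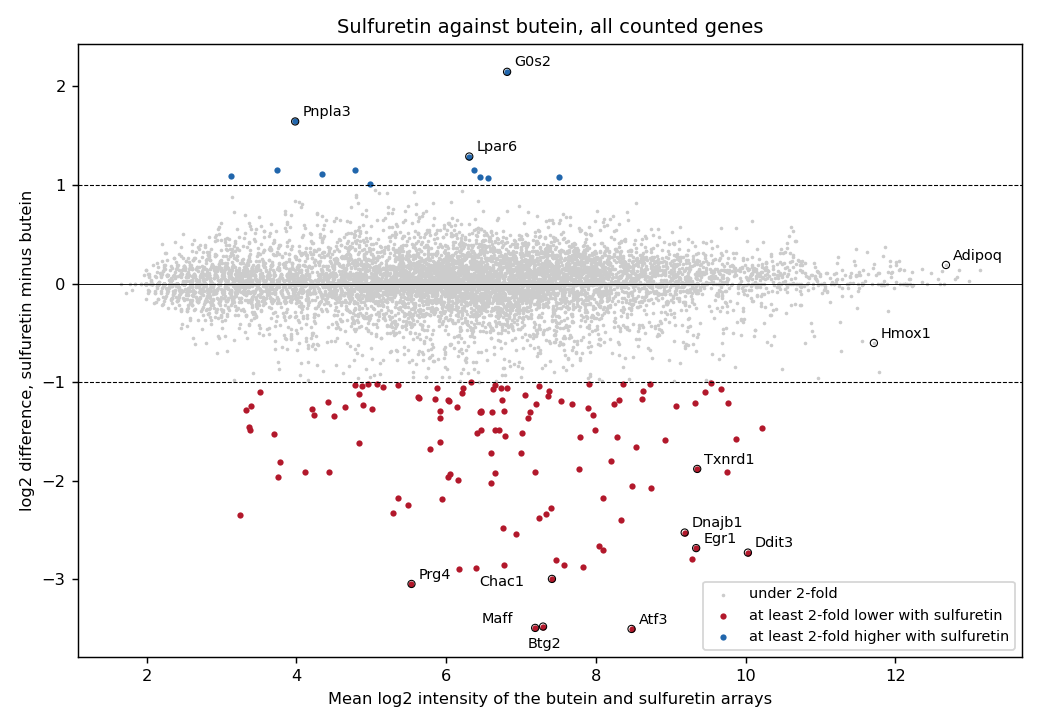
Log2 difference of sulfuretin minus butein (vertical axis) against the mean log2 intensity of both arrays (horizontal axis), 1 point per counted gene, with the 2-fold criterion as lines. The 129 genes past the lower line outnumber the 12 past the upper line.

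Levels beside DMSO show on which array the 141 genes stood out. Of the 129 lower genes, 126 were at least 2-fold above DMSO with butein, while sulfuretin was within 1.5-fold of DMSO for 94. Their median intensity was 50.4 with DMSO, 195 with butein and 60.3 with sulfuretin. Sulfuretin lay between DMSO and butein for 102 of them, equalled DMSO for 6 and lay on the other side of DMSO for 21. Of the 12 higher genes, 10 were at least 2-fold below DMSO with butein, and sulfuretin was within 1.5-fold of DMSO for 8. Against DMSO itself, 252 genes, 2.03%, were at least 2-fold higher with butein and 37, 0.297%, lower, beside 24 genes, 0.193%, higher and 6, 0.0482%, lower with sulfuretin. These counts share the DMSO, butein and sulfuretin arrays with the direct difference and are no separate evidence for it.

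The largest differences were in Atf3, Btg2 and Maff. Atf3, a stress-induced transcription factor that binds ATF and AP-1 sites, read 58.4 with DMSO, 1199.8 with butein and 106 with sulfuretin, so the level with sulfuretin was 11.4-fold below that with butein. Btg2, an antiproliferative p53 target that also counts among the immediate early genes, read 54.6, 490.0 and 43.5 in the same order, an 11.3-fold difference. Maff, a small Maf protein that pairs with NRF2, read 17.8, 525 and 47.0, an 11.2-fold difference. Butein was the high array for all of them, and sulfuretin was near DMSO for Btg2 and 2.63-fold above DMSO for Maff. With a single array for each compound these differences have no replicate check and no p-value is given for them.

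Chac1, a glutathione-degrading enzyme and ATF4 target, read 54.7 with DMSO, 482 with butein and 60.3 with sulfuretin, a difference of -3.00. Prg4, the gene of the lubricating glycoprotein lubricin, read 11.9, 134 and 16.1, a difference of -3.05. Neither gene was 2-fold above DMSO with sulfuretin. The highest value on the other side was that of G0s2, an inhibitor of the triglyceride lipase ATGL, which read 511 with DMSO, 53.4 with butein and 237 with sulfuretin, 4.43-fold more with sulfuretin than with butein. Pnpla3, a lipid droplet acyltransferase and lipase, read 87.5, 8.95 and 28.0, a 3.13-fold difference. Both were lowest with butein, and both were also more than 2-fold below DMSO with sulfuretin, so the compounds shared a direction and differed in size.

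**Figure D2:**
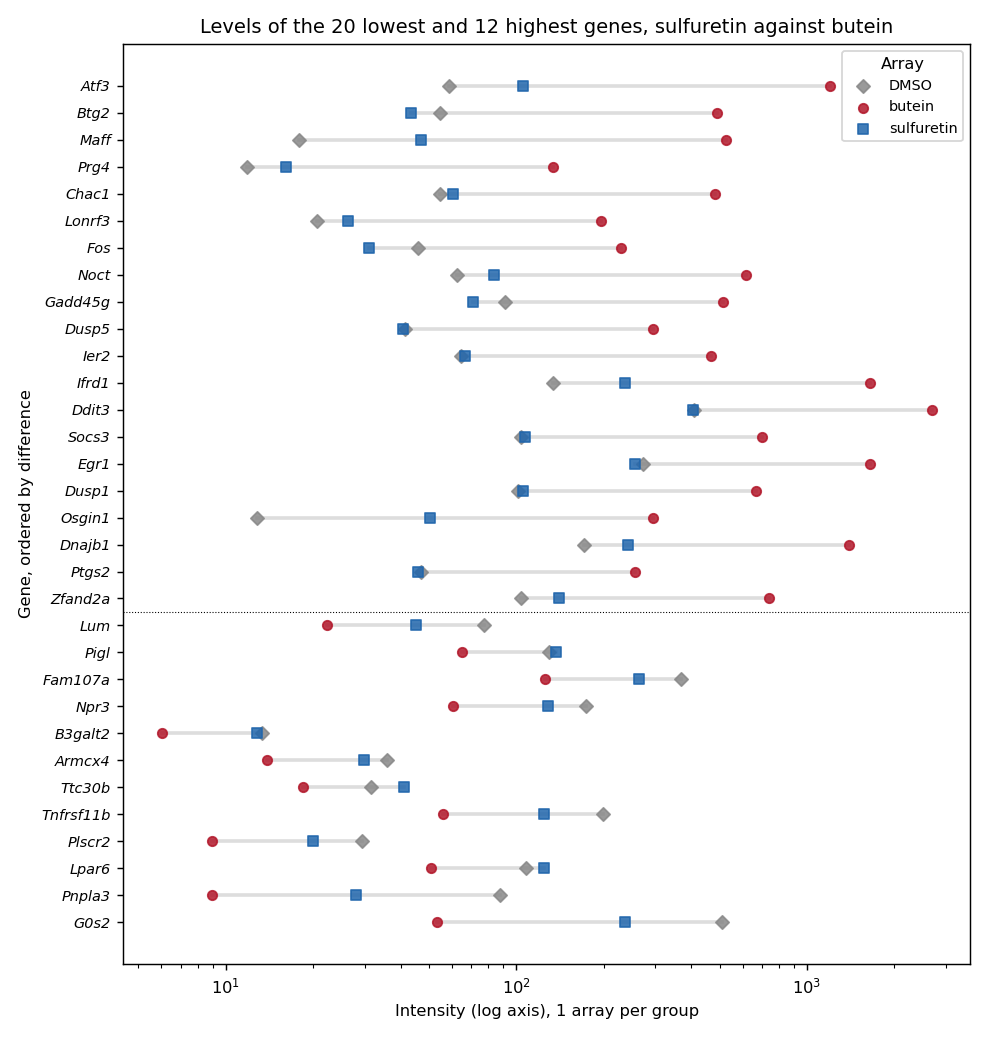
Intensity on a log axis of the genes with the largest differences, 1 point per array for DMSO, butein and sulfuretin. Atf3 reads 58.4, 1199.8 and 106 in that order and G0s2 reads 511, 53.4 and 237.

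The promoters of Atf3, Btg2 and Maff on the low side and of G0s2 and Pnpla3 on the high side are shown because these genes had the largest differences with a RefSeq entry. Those of Chac1 and Srxn1, a sulfiredoxin that reduces oxidised peroxiredoxins, were added after their values were seen, as examples of an ATF4 target and an NRF2 target. Each run is the 250 bases before the start site in RefSeq on assembly GRCm38.p6, 5′ to 3′ on the gene's strand, at chr1:191183334-191183583 (minus) for Atf3, chr1:134079156-134079405 (minus) for Btg2, chr15:79346371-79346620 (plus) for the most upstream of 3 Maff windows, chr1:193273189-193273438 (minus) for G0s2, chr15:84167566-84167815 (plus) for Pnpla3, chr2:119350992-119351241 (plus) for Chac1 and chr2:152105274-152105523 (plus) for Srxn1. Capitals mark matches to any of 7 motifs searched on both strands: TGACTCA (AP-1), TGACGTCA (cyclic AMP response element), TGACNNNGC (core of the antioxidant response element), GAANNTTC (paired heat shock units), TGATGNAA (composite C/EBP and ATF site), ACGTG (core of the hypoxia response element) and CCAAT.
Atf3: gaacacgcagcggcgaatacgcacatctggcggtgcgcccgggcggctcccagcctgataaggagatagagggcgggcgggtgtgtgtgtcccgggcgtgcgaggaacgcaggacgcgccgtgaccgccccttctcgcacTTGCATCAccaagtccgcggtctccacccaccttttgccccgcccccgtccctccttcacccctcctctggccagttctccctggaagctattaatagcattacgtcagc
Btg2: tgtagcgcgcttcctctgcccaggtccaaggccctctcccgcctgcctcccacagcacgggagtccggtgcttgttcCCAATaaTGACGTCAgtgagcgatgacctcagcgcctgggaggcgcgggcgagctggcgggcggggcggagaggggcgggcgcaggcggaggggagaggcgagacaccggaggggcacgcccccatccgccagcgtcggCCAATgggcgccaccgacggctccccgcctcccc
Maff: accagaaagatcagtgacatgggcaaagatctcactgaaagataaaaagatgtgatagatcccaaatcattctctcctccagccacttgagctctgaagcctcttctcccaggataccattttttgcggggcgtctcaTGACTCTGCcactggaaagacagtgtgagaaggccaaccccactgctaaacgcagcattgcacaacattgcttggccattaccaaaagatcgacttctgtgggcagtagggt
G0s2: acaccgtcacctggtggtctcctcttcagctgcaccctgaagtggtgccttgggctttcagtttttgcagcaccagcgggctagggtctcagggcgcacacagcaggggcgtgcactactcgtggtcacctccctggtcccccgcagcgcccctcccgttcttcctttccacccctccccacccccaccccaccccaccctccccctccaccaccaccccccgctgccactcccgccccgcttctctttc
Pnpla3: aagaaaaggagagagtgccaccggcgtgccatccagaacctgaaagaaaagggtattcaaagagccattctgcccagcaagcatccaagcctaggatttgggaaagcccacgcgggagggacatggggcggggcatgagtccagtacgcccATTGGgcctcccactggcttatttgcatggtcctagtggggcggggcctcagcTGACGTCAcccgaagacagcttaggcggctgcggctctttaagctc
Chac1: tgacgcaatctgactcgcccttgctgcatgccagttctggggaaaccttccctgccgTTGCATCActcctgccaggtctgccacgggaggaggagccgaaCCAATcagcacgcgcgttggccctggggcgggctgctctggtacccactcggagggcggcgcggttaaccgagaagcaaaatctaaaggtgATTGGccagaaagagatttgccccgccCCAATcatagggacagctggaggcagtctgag
Srxn1: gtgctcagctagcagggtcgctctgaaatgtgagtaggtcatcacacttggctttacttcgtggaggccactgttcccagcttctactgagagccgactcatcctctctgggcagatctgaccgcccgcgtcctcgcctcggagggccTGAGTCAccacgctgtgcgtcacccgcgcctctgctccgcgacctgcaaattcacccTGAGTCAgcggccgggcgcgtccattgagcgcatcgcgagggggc

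The letters differed between these genes. The Atf3 window held the composite C/EBP and ATF motif 110 bases before the start, and the Chac1 window held it at 193, beside CCAAT at 150, 59 and 32. The Btg2 window held TGACGTCA at 166, and the Pnpla3 window held the same motif at 46 although the gene moved the other way. Srxn1 held TGACTCA at 102 and 45, Maff held TGACNNNGC at 112, and the G0s2 window held none of the 7. A match is a description of letters and not a bound site.

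RefSeq promoter windows were matched for 98 of the 129 lower genes, 132 windows in all. TGACNNNGC was in 18.9% of them, beside 11.6% of the windows of counted genes and 10.2% of all 32851 windows. TGACGTCA was in 5.30%, beside 2.42% and 1.55%. ACGTG was in 25.8%, beside 21.1% and 16.6%, and CCAAT in 39.4%, beside 34.8% and 33.8%. TGACTCA was in 6.06%, beside 3.35% and 4.46%, TGATGNAA in 4.55%, beside 1.92% and 3.45%, and GAANNTTC in 7.58%, beside 4.95% and 6.69%. The motifs overlap in part, since TGACTCA followed by GC also matches TGACNNNGC. Shares are per window, so a gene with several start sites, such as Maff with 3, counts once for each. The higher genes had only 10 windows, from 8 genes, with TGACNNNGC and TGACGTCA each in 10%.

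Gene lists were read against the 1.04% lower and 0.0965% higher among all counted genes and their median difference of 0. The lists were chosen with earlier results of these data known, so their counts and order are descriptions and not tests. By any amount, 30.1% of all counted genes read lower with sulfuretin and 37.0% higher, and 32.9% were equal. The list furthest from 0 was that of AP-1 and immediate early genes, which encode transcription factors and regulators transcribed within minutes of a stimulus. Of 29 members with a probe set 28 were counted, of which 20 were at least 2-fold lower with sulfuretin and 0 higher, with a median of -1.71. Fos read 46.0 with DMSO, 229.7 with butein and 31.1 with sulfuretin. Egr1, a zinc finger factor of the same early wave, read 272, 1642 and 255. Jun, the partner of Fos in AP-1, read 75.8, 419 and 114. Sulfuretin minus DMSO was -0.57 for Fos and -0.09 for Egr1, so Egr1 stood near DMSO. For Jun sulfuretin was above DMSO but far under butein. Fosl1, Junb, Nr4a1, Myc and the mRNA-decay factor Zfp36 were also past the criterion, between -2.27 and -1.52, whereas Jund differed by -0.20 and Srf, the factor that drives many immediate early genes, by 0.14.

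Dual specificity phosphatases and Sprouty proteins are feedback inhibitors of MAP kinase signalling, and all 15 counted members were lower with sulfuretin, 7 of them by 2-fold, with a median of -0.90. Dusp1, which acts on JNK and p38, read 101 with DMSO, 667 with butein and 105 with sulfuretin. Dusp5, a nuclear ERK phosphatase, read 41.3, 295 and 40.8. Dusp6, a cytoplasmic ERK phosphatase, read 34.9, 137 and 55.6. Sulfuretin thus stood at the DMSO level for Dusp1 and Dusp5 and above it for Dusp6. Spry2 differed by -0.90 and Spry1 by -0.11.

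Heat shock genes encode chaperones that refold damaged protein in the cytosol. Of 23 counted, 22 were lower with sulfuretin and 6 by at least 2-fold, with a median of -0.61. Dnajb1, an HSP70 co-chaperone, read 171 with DMSO, 1398 with butein and 242 with sulfuretin. Hspa1b, an inducible HSP70, read 561, 1622 and 544. Its near-identical copy Hspa1a was read by a dim probe set at 9.81, 12.2 and 9.81, and reads of these copies are uncertain. Hsph1, Dnaja1, Bag3 and Dnajb4 were the other members past the criterion. Cryab, a small heat shock protein, was the exception, at 319.5 with DMSO, 171 with butein and 189 with sulfuretin.

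ATF4 drives the response to amino acid shortage and to phosphorylated eIF2α. Of 29 counted members 27 were lower with sulfuretin and 6 by at least 2-fold, with a median of -0.43. Ddit3, the gene of the factor CHOP, read 408 with DMSO, 2693 with butein and 406 with sulfuretin on its brightest probe set, although its other probe set read 20.2 with both compounds. Ppp1r15a, the stress-induced subunit that dephosphorylates eIF2α, read 50.1, 346 and 66.6. The members past the criterion were these genes with Chac1, Trib3 and the amino acid transporters Slc7a5 and Slc7a11. Slc7a11 was dim, at 6.24 with DMSO, 16.7 with butein and 7.83 with sulfuretin. Atf4 itself differed by -0.84, while the synthesis enzymes Asns, at -0.24, and Phgdh, at 0.03, were close on both arrays. ER chaperone genes, the arm under ATF6 and XBP1, had a median of -0.15 with 0 of 21 past the criterion, and Hspa5, the ER HSP70 BiP, read 1987, 3670.0 and 2449.6.

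NRF2 targets, which make and use glutathione and detoxify quinones, differed less uniformly. Of 32 counted members 24 read lower on the sulfuretin array, 6 past the criterion, with a median of -0.39. Against DMSO, 14 members were at least 2-fold higher with butein and 11 with sulfuretin, so both compounds were high in this list. Hmox1, heme oxygenase 1, read 197 with DMSO, 4134 with butein and 2721 with sulfuretin, a 1.52-fold difference. Gclm, the modifier subunit of glutamate-cysteine ligase, read 262, 1318 and 951. Gclc, the catalytic subunit of the same enzyme, read 50.3, 657 and 209 and was past the criterion at -1.65. The compounds were therefore closer for the modifier than for the catalytic subunit. Txnrd1, a thioredoxin reductase, read 127, 1255 and 341, and Srxn1 read 83.2, 1181 and 563. Nqo1, a quinone reductase, differed by -0.61, and Osgin1 by -2.55. Single arrays give no interval for these differences, so the closer values of Hmox1, Gclm and Nqo1 do not show that the compounds act alike.

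**Figure D3:**
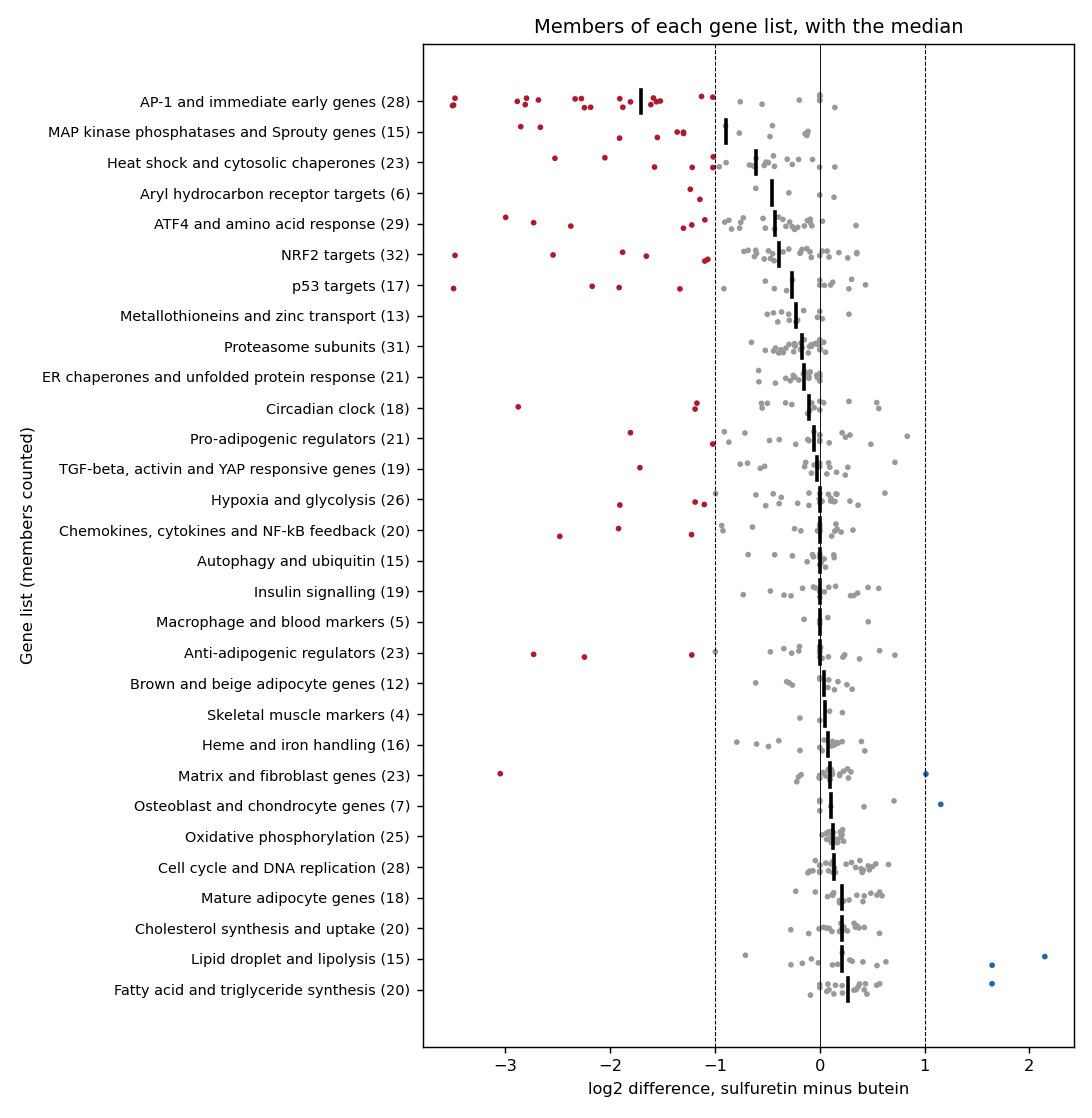
Median log2 difference of sulfuretin minus butein for the counted members of each of 30 gene lists, with the members as points. AP-1 and immediate early genes lie lowest at -1.71 and fatty acid and triglyceride synthesis highest at 0.27. The lists were chosen with earlier results of these data known.

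Genes at least 2-fold above DMSO with both compounds numbered 23, and all 23 read lower with sulfuretin than with butein. So did all 252 genes at least 2-fold above DMSO with butein, so this count does not set the shared genes apart. Past 2-fold between the compounds were 7 of the 23: Maff, Osgin1, Txnrd1, Gclc, Dusp10, Slc2a1 and Srxn1. Among the 252 the count past 2-fold was 126. Of the 23, a further 9 differed by under 0.5. Slc40a1, the iron exporter ferroportin, read 12.1 with DMSO, 114 with butein and 81.0 with sulfuretin. Cbr3, a carbonyl reductase, read 392, 1039 and 989, and Cxcl5, a neutrophil chemokine, read 10.3, 37.4 and 33.0. For these genes the compounds lay nearer to each other than to DMSO. Of the 24 genes at least 2-fold above DMSO with sulfuretin, 23 were also so with butein. The exception was Smyd4, which read 22.4 with DMSO, 32.6 with butein and 49.7 with sulfuretin. Genes at least 2-fold below DMSO with both were 6, and each was higher with sulfuretin: G0s2, Pnpla3, the lipogenic factor Thrsp, the G protein regulator Rgs2, the TEAD cofactor Vgll4 and A530020G20Rik. So was each of the 37 genes at least 2-fold below DMSO with butein.

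**Figure D4:**
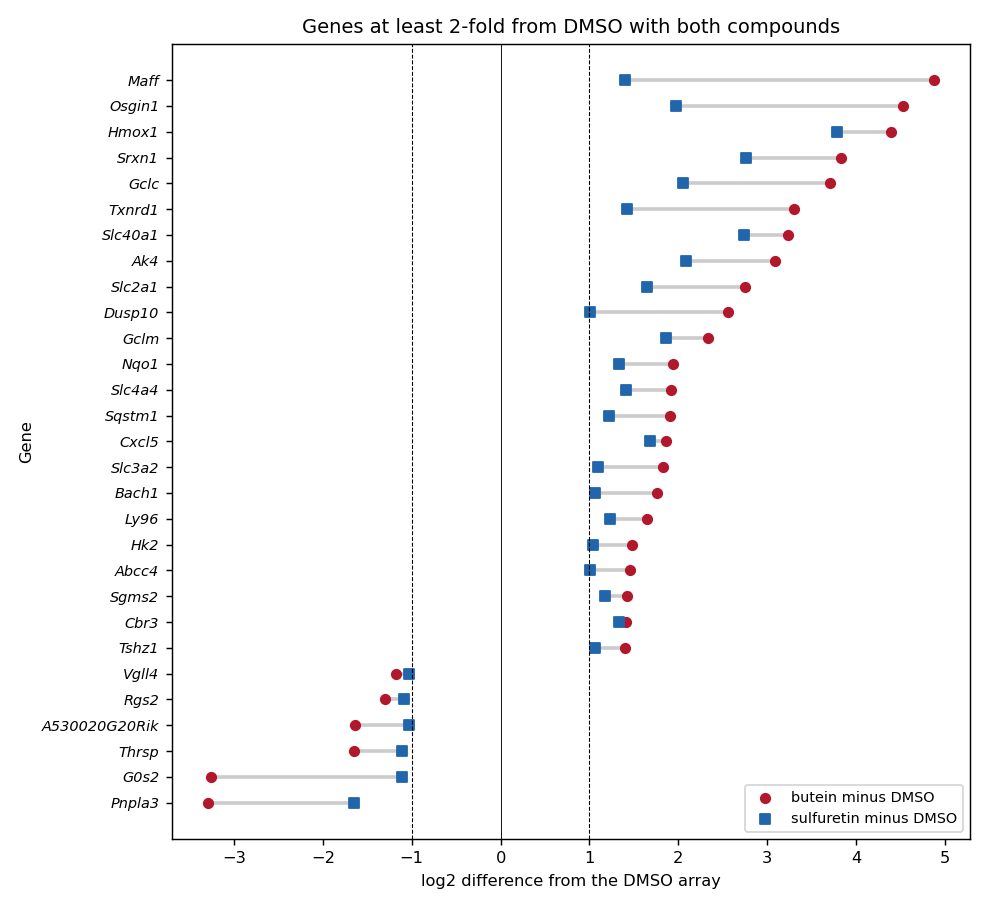
Log2 difference from DMSO with butein and with sulfuretin for the 29 genes at least 2-fold from DMSO the same way with both compounds. For each of the 29 the value with sulfuretin lies nearer to 0 than that with butein, and both values of a gene share the DMSO array. Sulfuretin was also below butein for all 252 genes at least 2-fold above DMSO with butein. It was above butein for all 37 at least 2-fold below DMSO with butein.

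The medians of the lipid gene lists lay on the other side of 0, by small amounts. In the list of fatty acid and triglyceride synthesis 17 of 20 counted members were higher with sulfuretin, 1 of them by 2-fold, with a median of 0.27. Higher with sulfuretin were also 37.0% of all counted genes and 53.4% of the brightest 3110. Agpat2, an acyltransferase of triglyceride synthesis, read 1919.9 with DMSO, 1276 with butein and 1897 with sulfuretin. Dgat1, which makes the final triglyceride bond, read 693, 515 and 704, while Fasn, fatty acid synthase, read 1575, 1038 and 1095. Sulfuretin was at the DMSO level for the first pair and near butein for Fasn. Among 15 lipid droplet and lipolysis genes, 10 were higher with sulfuretin and 5 lower. G0s2 and Pnpla3 were past the criterion and the median was 0.22. Lipe, hormone-sensitive lipase, read 355, 256 and 374, and Plin4, a droplet coat protein, read 1149.6, 873 and 1353. Among the 5 lower members, Plin2 read 2950 with DMSO, 4213 with butein and 3483 with sulfuretin, and Hilpda differed by -0.71. Cholesterol synthesis genes were higher with sulfuretin for 17 of 20 members, with 0 past the criterion and a median of 0.21, and Sqle, squalene epoxidase, was furthest at 0.57.

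Mature adipocyte genes were higher with sulfuretin for 16 of 18 counted members, 0 of them by 2-fold, with a median of 0.21. Both exceptions were Pparg, the master regulator of adipogenesis, at 462 with DMSO, 416 with butein and 355 with sulfuretin, and Slc2a4, the insulin-responsive glucose transporter, at -0.04. Cebpa, the partner factor of Pparg, read 158, 114 and 160.1. Thus the pair of factors differed in opposite directions. Fabp4, the adipocyte fatty acid binding protein, read 8512 with butein and 9340.1 with sulfuretin on its brightest probe set. Its dimmer probe sets read 422 with DMSO, 80.0 with butein and 376 with sulfuretin, and 232, 54.2 and 169.6, which is past the criterion at 2.23 and 1.65, while another differed by 0.19. Oxidative phosphorylation genes were higher with sulfuretin for 25 of 25 members, from 0.02 for Cox4i1 to 0.23 for Ndufs1, with a median of 0.13 that was 0.07 after loess correction on level. Among the brightest 3110 counted genes 53.4% were higher with sulfuretin and 35.9% lower, so a small positive difference was common at high intensity.

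Regulators of adipogenesis did not move as a list. Of 21 counted pro-adipogenic genes, Egr2 and Klf4 were past the criterion on the low side and the median was -0.06. Egr2 was dim, at 7.32 with DMSO, 25.6 with butein and 7.32 with sulfuretin. Cebpb, an early adipogenic factor that also pairs with ATF4, read 648 with DMSO, 1937 with butein and 1062 with sulfuretin, and Klf15, a late one, read 21.4, 11.9 and 21.2. Of 23 anti-adipogenic genes Ddit3, Zfp36 and Trib3 were past the criterion on the low side, with a median of 0. Among brown and beige genes 0 of 12 were past the criterion, and Prdm4, a zinc finger factor, read 42.8, 73.8 and 59.3. Insulin signalling genes had a median of 0 with 0 of 19 past the criterion.

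The p53, inflammatory, circadian, aryl hydrocarbon receptor and TGF-β lists held a few members past the criterion, all on the low side. Plk2, Gadd45a and Mdm2 accompanied Btg2 among 17 p53 targets, while Cdkn1a, the cell cycle inhibitor p21, read 216 with DMSO, 332 with butein and 176 with sulfuretin. Of the 17, 9 were lower with sulfuretin, 6 higher and 2 equal, with a median of -0.26. Sesn1, at 0.44, and Ccng1, at 0.30, were among the 6 higher. Ptgs2, the prostaglandin synthase COX-2, read 47.0, 257 and 46.0, and it stood with Nfkbiz and Csf1 among 20 chemokine, cytokine and NF-κB feedback genes, whose median was 0. Noct, a clock-controlled phosphatase, read 62.7, 615 and 83.7 and stood with Bhlhe40 and Nfil3 among 18 circadian genes. The core clock genes Clock and Per2 differed by -0.05 and 0.00. Ahr, the aryl hydrocarbon receptor, read 15.8, 45.3 and 19.2, and its target Tiparp differed by -1.14, while Cyp1b1, another target, differed by 0.14. Tgif1, a repressor of TGF-β signalling, was the only one of 19 in its list.

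Hypoxia and glycolysis genes split. Slc2a1, the glucose transporter GLUT1, read 153 with DMSO, 1029.8 with butein and 479.8 with sulfuretin, 2.15-fold lower with sulfuretin than butein but 3.14-fold above DMSO. Ero1a, an ER oxidase, read 296, 1669.6 and 445. Pdk1, a kinase that shuts pyruvate out of mitochondria, went the other way at 193, 221 and 341. Ldha, lactate dehydrogenase A, differed by 0.11, and the list median was 0.00 with 3 of 26 past the criterion on the low side. The lists with 0 members past 2-fold either way included 31 proteasome subunits, with 25 lower and a median of -0.17, and 13 metallothionein and zinc transport genes, with a median of -0.23. They also included 28 cell cycle genes, with 19 higher and a median of 0.13, and 16 heme and iron genes, with a median of 0.08.

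Of the 12 higher genes, 4 were in a list (G0s2, Pnpla3, Tnfrsf11b and Lum) and 8 in none. Tnfrsf11b, the gene of osteoprotegerin, a decoy receptor for RANKL, read 199 with DMSO, 55.7 with butein and 124 with sulfuretin. Npr3, the clearance receptor for natriuretic peptides, read 173, 60.3 and 128. Lum, the collagen-binding proteoglycan lumican, read 77.3, 22.3 and 45.1. In each the butein array was lowest and sulfuretin lay under DMSO. Lpar6, a lysophosphatidic acid receptor, read 108, 50.7 and 124, Pigl, an enzyme of GPI anchor synthesis, read 129, 64.7 and 136, and Ttc30b, a cilium transport protein, read 31.7, 18.4 and 40.9, so for this group sulfuretin was above DMSO. The others were Plscr2, Armcx4, B3galt2 and Fam107a, between 1.08 and 1.16. When a pseudocount of 8 was added before taking logs, G0s2, Pnpla3, Lpar6, Tnfrsf11b and Fam107a remained past the criterion, and the others, among them Npr3 at 0.99 and Lum at 0.81, did not.

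Other probe sets for the called genes gave a check within the same arrays. For 70 of the lower genes, 114 other probe sets were above the floor. Of these 98 were lower with sulfuretin, 48 by at least 2-fold, 8 were higher, none by 2-fold, and 8 were equal. Hspa1b read -2.05 and -1.86 on its others, Btg2 -2.78, Dnajb1 -2.89 and Gclc -1.95. Those of Srxn1 read -1.07, -1.15 and -0.18. Nfkbiz, past the criterion at -1.92, read -1.59 on another probe set and 0.34 on a further one. For the higher genes 5 had 8 other probe sets in all, of which 7 were higher and 1 by 2-fold. That of Pigl differed by 0.08, against 1.07 on its brightest, and that of Tnfrsf11b by 0, against 1.16. Probe sets of a gene share the RNA and the array, so they check the probes and not the culture.

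**Figure D5:**
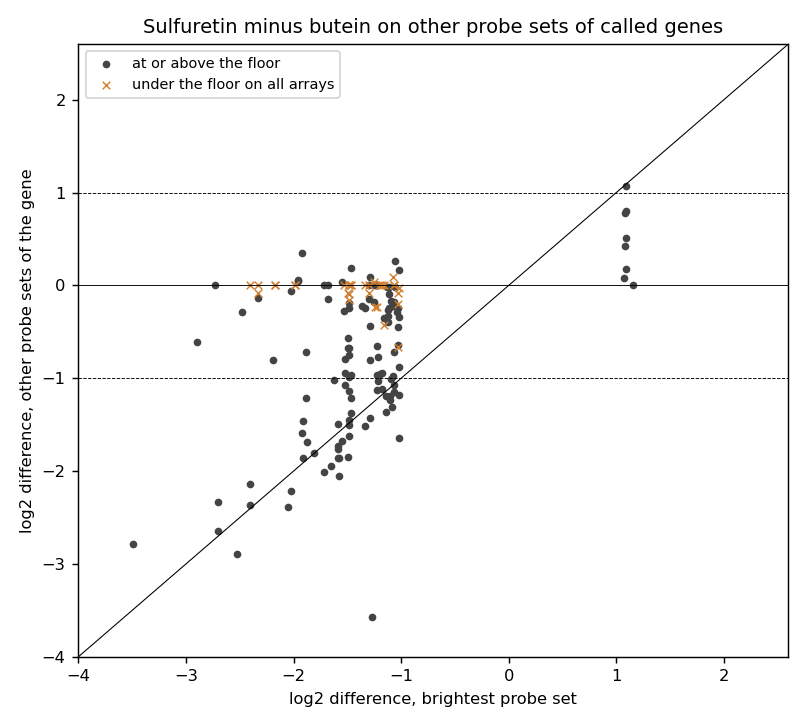
Log2 difference of sulfuretin minus butein on the brightest probe set of each called gene (horizontal axis) and on its other probe sets (vertical axis), 1 point per other probe set, with crosses for those under the floor on all arrays, the diagonal as equality and dashed lines at 2-fold. Most points for genes lower on the brightest probe set also lie under 0, and a probe set of Nfkbiz, at 0.34 against -1.92 on the brightest, is among those that do not.

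In the main comparison the arrays of resveratrol and DMSO1 entered only the floor and the choice of the brightest probe set. Both also entered the limma and joint quantile normalization alternatives given below. These arrays appear to have been normalized apart from the others. On that pair 0.0804% of counted genes were 2-fold or more higher with resveratrol and 0.0643% lower. Of the 129 genes lower with sulfuretin than with butein, 5 were at least 2-fold higher with resveratrol than with DMSO1 and 0 lower. Of the 12 genes on the other side, 3 were at least 2-fold lower with resveratrol and 0 higher. Resveratrol is a stilbene and belongs to neither structural class.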

How the data were processed

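Total RNA of 5 cultures, 500 ng each, was labelled and hybridised to Affymetrix mouse arrays, per the labels' protocols. The authors made the deposited intensities, which are linear, with RMA per the submitters' processing notes; the sources used here give neither its version nor its background step. When sorted, the butein, sulfuretin and DMSO arrays have almost the same values, unlike DMSO1 and resveratrol, so normalization appears to have run in 2 sets, and the compounds compared here share one. Exactly equal values (within 1e-06 on the log2 scale) make up 48.2% of probe sets between butein and sulfuretin. The number of arrays, 1 a group, limits the precision.

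Of 45037 probe sets, 34945 name 1 gene, 932 several and 9160 none in the platform annotation; 34741 probe sets carry a gene ID found in RefSeq GRCm38.p6. Log2 was taken with no pseudocount. The design had foreseen log2 values. Genes were called at a log2 difference of 1, a 2-fold criterion, with no test. limma 3.58.1 in R 4.3.3 was an alternative with DMSO and DMSO1 pooled, and gave the same standard error, 0.773, to every gene; scripts were tested on simulated data. Other work used Python 3.11.15, pandas 2.3.3 and statsmodels 0.14.6.

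Named genes were the 20 lowest and 15 highest past the criterion without clone names, up to 5 called members per list or the member nearest the list median, up to 12 genes far from DMSO with both compounds and differing by under 0.5, genes past the criterion with butein near DMSO, and 16 set genes. Other named genes were chosen after their values were seen. The comparison, members and lists were chosen with earlier results of these data known. Alternatives were the fold criterion, the floor, the probe set rule, normalization, centring, loess and a pseudocount.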

Additional observations from a re-analysis of the deposited data

Results flagged for a closer look

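The compounds lay on opposite sides of DMSO for 6 of the 141 called genes, each by more than 0.26 on the log2 scale, and these differences were not tested. Btg2 was at 3.17 over DMSO with butein and -0.33 with sulfuretin. For Fos the values were 2.32 and -0.57, and for Gadd45g, a growth arrest and stress gene, 2.50 and -0.36. Its relative Gadd45b was at 1.20 with butein and -0.52 with sulfuretin. Map7d2, a microtubule-associated protein, was at 0.42 with butein and -0.62 with sulfuretin, and it was the only called gene with butein within 0.5 of DMSO. Ttc30b went the other way, at -0.79 with butein and 0.37 with sulfuretin.

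Probe sets that name no single gene were not used above. Of 3688 such probe sets that reached the floor, 17 (0.461%) were at least 2-fold lower with sulfuretin than with butein and 9 (0.244%) were at least 2-fold higher.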

How the results depend on the processing

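The main limit is 1 array a group, with unknown doses. No paired analysis was possible because each group has 1 array. At a fold criterion of 1.5, 352 genes were lower with sulfuretin and 122 higher, and 218 of the lower genes were at least 2-fold above DMSO with butein; at a criterion of 3 the counts were 52, 2 and 52. Adding a pseudocount of 8 left 5 higher genes. limma with DMSO and DMSO1 pooled called 3 lower and 0 higher genes (59 and 2 at an unadjusted p under 0.05), but it gave every gene the same standard error, so it only ranks the folds again and is no test of these genes; after joint quantile normalization it called 0 and 0 (103 and 9). Under the other settings 90 to 140 genes were lower and 8 to 13 higher, with no gene called the other way. The lowest counts, 90 and 8, came from the mean of all probe sets, under which Fabp4 reached 1.05. Of 62 named called genes 41 kept their call under all 9 alternatives run at the 2-fold criterion. With the floor at percentile 75, Dusp2, Egr2, Plscr2 and Slc7a11 were not counted. Under at least 1 other alternative 19 genes did not reach the criterion: Ahr, Bag3, Csf1, Dusp10, Klf4, Map7d2, Mdm2, Slc7a11, Srxn1 and Trib3 on the low side, and Armcx4, B3galt2, Fam107a, Lum, Npr3, Pigl, Plscr2, Tnfrsf11b and Ttc30b on the high side. At a tolerance of 0.1 on the log2 scale, list medians moved in 17 comparisons with the alternatives, over 10 of the 30 lists, and stayed the same in 253. Centring on the mean was added after seeing the data.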

Other observations

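Of the 129 genes lower with sulfuretin, 71 were in none of the lists. Several encode chromatin and transcription proteins, a grouping chosen after the values were seen and with no test. Prdm2, a histone methyltransferase, read 52.6 with DMSO, 195 with butein and 48.0 with sulfuretin. Brd2, a bromodomain protein, read 204, 476 and 209.7. The BTB zinc finger genes Zbtb21, Zbtb10, Zbtb2 and Zbtb11 differed by -1.68, -1.25, -1.18 and -1.04. In each of these genes butein was the high array and sulfuretin stood near DMSO on the brightest probe set. Other probe sets repeated this unevenly. Those of Prdm2 differed by -2.22 and -0.06 and that of Brd2 by -1.12. Those of Zbtb21 differed by 0 and -0.15 and those of Zbtb10 by -0.17 and 0. Others act on ubiquitin, among them the ligases Siah2, which differed by -1.62, and Peli2, at 29.2, 128 and 32.9. The other probe set of Siah2 differed by -1.01, but those of Peli2 by 0.06 and 0.05, against -1.96 on its brightest. Sgk1, a serum- and glucocorticoid-induced kinase, read 100.4, 549 and 158, and Socs3, an inhibitor of cytokine signalling, read 104, 698 and 107.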
